A study of Homo sapiens with 19 samples.

Results

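The H2AZ data of this series are 2 lists of enriched regions (peaks) of the histone variant H2A.Z, from U2OS cells treated with mock siRNA and from U2OS cells treated with EP400 siRNA. All 84608 peaks of both lists were taken, out of 431797 peaks in the 11 peak lists of the series. The mock list held 58082 of them and the EP400 siRNA list 26526. U2OS cells are a long-established line grown from a human osteosarcoma. The mock siRNA was directed against GFP, the EP400 siRNA against EP400, and cells were collected 72 hr after transfection. Chromatin immunoprecipitation (ChIP) with an anti-H2AZ antibody was done in 1 library per condition, so no difference between the lists has a replicate check and no p-value is given. The series of 19 samples also holds a list of 18048 EP400 peaks from 3 immunoprecipitations in U2OS cells for which no siRNA is named, lists for Pol II, MED26 and H3.3 in both conditions, lists for the marks H3K18ac and H3K4me1 in mock cells, and 1 RNA library per condition, each used here to place or describe the H2AZ peaks.

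H2A.Z replaces the ordinary histone H2A in a small share of nucleosomes. It is known for the nucleosomes that flank the start of active and poised genes, on either side of the nucleosome-depleted start itself, and it is also found at enhancers. EP400 is the ATPase of the human TIP60-EP400 complex, which together with the related SRCAP complex exchanges H2A for H2A.Z. The title of the series asks about another histone variant, H3.3, and the H2AZ lists show where H2A.Z was detected when EP400 was lowered. EP400 mRNA, which checks the siRNA, stood at 10.04 FPKM in mock cells (a level scaled by transcript length and library size) and at 2.28 FPKM in EP400 siRNA cells, 22.8% of mock. Its log2 ratio of FPKM + 1 was -1.75 as deposited and -1.17 with both libraries rescaled to the same sum.

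The promoters below belong to 6 genes at the widest mock H2AZ peaks near a transcription start, 3 that still had H2AZ at their ends after EP400 siRNA and 3 that had none. They are shown so that both outcomes can be read against the base composition of the start. Each window runs from 250 bases before to 50 bases after the start listed by RefSeq on GRCh38.p14, 5′ to 3′ on the strand of the gene. CpG dinucleotides, which are dense in most promoters that carry H2A.Z, are in capitals. Windows were matched by gene symbol, and no coordinate was carried between that build and the hg19 build of the peaks. For EPC1, ARID5B and SFR1 RefSeq lists 2 windows and the first is shown.
EPC1: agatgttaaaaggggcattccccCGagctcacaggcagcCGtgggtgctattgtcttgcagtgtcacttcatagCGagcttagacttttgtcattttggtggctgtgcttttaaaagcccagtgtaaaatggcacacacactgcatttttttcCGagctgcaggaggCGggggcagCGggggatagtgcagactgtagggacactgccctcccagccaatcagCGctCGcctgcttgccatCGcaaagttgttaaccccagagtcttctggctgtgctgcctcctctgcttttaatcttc
ARID5B: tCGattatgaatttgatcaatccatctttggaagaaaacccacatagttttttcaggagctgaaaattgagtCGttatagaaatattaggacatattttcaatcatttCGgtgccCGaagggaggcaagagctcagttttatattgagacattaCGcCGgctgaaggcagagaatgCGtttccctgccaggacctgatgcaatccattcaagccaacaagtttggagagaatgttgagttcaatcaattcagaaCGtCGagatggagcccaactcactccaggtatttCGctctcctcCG
ITGB8: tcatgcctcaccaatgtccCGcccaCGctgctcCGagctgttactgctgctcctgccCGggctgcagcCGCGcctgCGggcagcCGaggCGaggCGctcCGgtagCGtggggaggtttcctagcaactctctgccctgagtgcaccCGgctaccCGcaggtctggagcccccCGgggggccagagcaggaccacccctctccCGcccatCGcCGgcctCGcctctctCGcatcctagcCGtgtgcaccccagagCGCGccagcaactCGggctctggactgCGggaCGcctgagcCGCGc
CYP4V2: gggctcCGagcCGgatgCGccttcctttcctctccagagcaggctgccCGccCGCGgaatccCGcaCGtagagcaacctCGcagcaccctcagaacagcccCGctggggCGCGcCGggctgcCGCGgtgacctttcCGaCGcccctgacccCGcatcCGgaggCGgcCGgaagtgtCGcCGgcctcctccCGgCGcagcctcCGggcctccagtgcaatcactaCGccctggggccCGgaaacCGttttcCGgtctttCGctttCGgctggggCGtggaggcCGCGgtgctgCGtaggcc
SFR1: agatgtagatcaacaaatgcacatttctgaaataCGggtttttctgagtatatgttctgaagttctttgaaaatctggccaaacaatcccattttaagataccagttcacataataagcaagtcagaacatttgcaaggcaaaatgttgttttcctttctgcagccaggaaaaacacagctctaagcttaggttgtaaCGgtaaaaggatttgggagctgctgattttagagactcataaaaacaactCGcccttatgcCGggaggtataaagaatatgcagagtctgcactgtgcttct
DNAJC13: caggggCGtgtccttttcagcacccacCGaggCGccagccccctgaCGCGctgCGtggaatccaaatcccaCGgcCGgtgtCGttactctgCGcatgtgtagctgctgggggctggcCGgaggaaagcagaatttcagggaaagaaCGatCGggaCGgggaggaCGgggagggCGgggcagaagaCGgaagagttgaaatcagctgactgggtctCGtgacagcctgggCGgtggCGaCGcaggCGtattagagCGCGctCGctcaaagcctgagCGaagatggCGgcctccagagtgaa

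The first 3 genes kept H2AZ. EPC1 encodes a scaffold subunit of the TIP60-EP400 complex itself, and its window (chr10:32378720-32379019, minus strand) holds 9 CpGs at 53% G and C. ARID5B, a DNA-binding protein, has 11 CpGs at 43% (chr10:61901449-61901748, plus strand), and the integrin gene ITGB8 28 CpGs at 71.7% (chr7:20330650-20330949, plus strand). The last 3 genes had no H2AZ at their ends after EP400 siRNA. CYP4V2, a fatty acid hydroxylase gene, has 36 CpGs at 72.0% G and C (chr4:186191317-186191616, plus strand). SFR1, a recombination factor gene, has 4 CpGs at 38.7% (chr10:104119916-104120215, plus strand), and DNAJC13, a gene of endosomal transport, has 27 at 63.3% (chr3:132417252-132417551, plus strand). CpG-poor and CpG-rich starts thus stand in both sets, and the number of CpGs does not part these 6 windows by outcome.

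H2AZ was listed at fewer and narrower places after EP400 siRNA. The number of peaks was 45.7% of the mock number, and the length they covered was 37.5% of the mock length (6.36 Mb against 16.95 Mb). Of the mock peaks 28.1% (16332, Wilson 95% interval 27.8 to 28.5%) overlapped an EP400 siRNA peak by 1 bp or more and are called retained, and 71.9% (41750) did not and are called lost. In the other direction 17262 EP400 siRNA peaks (65.1%) overlapped a mock peak and 34.9% (9264) did not. These intervals and all that follow cover counting error alone. Retained mock peaks numbered 9966 where 50% of the peak had to be covered, and 25012 where an EP400 siRNA peak within 1 kb was enough. Among the 26526 widest mock peaks, as many as the EP400 siRNA list holds, 49.8% (13198) were retained.

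The widest peaks were the most reduced in number. Peaks of 100 bp, the smallest width the lists hold, numbered 23840 in mock cells and 12301 after EP400 siRNA, 51.6% of the mock number. The percentage was 43.8% for peaks of 300 to 400 bp (12035 and 5266), 32.6% for 500 to 800 bp (7715 and 2515) and 20.7% for 900 bp or more (3065 and 633). The widest peak measured 3700 bp in mock cells and 2400 bp after EP400 siRNA. The median width was 200 bp in both lists, and the mean width 292 bp and 240 bp. The deposited lists carry no score, height or depth, so a lower level of H2A.Z on chromatin and a shallower or less enriched library cannot be told apart.

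Where a mock peak was retained, what overlapped it was usually smaller. Retained mock peaks had a mean width of 524 bp, and the EP400 siRNA peaks over them a mean summed width of 321 bp. The EP400 siRNA peaks were narrower at 69.4% of the retained mock peaks, equal at 14.6% and wider at 15.97%. In base pairs 49.9% of the retained mock peaks' length was shared, and 6.68% of the retained mock peaks were broken into more than 1 EP400 siRNA peak. Lost mock peaks were mostly small, with a median width of 100 bp against 400 bp for retained ones. The largest lost peak measured 2000 bp.

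Peaks were next placed with respect to genes. A locus is a cluster of overlapping transcripts in the RNA table (20146 loci), and a peak within 2 kb of either end of a locus was counted at a locus end. Enhancers were stretches where mock peaks of H3K4me1, a mark of enhancers, and of H3K18ac, a mark of active regulatory DNA, coincide, and a peak on such a stretch and at no locus end was counted at an enhancer. All other peaks are called elsewhere. Of the mock peaks 29.4% lay at locus ends, 4.89% at enhancers and 65.8% elsewhere. Of the EP400 siRNA peaks 40.2% lay at locus ends, 1.76% at enhancers and 58.1% elsewhere.

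Enhancers were the place with the fewest H2AZ peaks left. They held 2838 mock peaks and 467 EP400 siRNA peaks, 16.5% of the mock number. Locus ends held 17047 and 10654 peaks (62.5%), and the rest of the genome 38197 and 15405 (40.3%). In covered length the percentages were 12.97% at enhancers, 44.0% at locus ends and 35.5% elsewhere. The order of the places was the same by number and by length. Retention, against 28.1% of all mock peaks, was 47.4% at locus ends (46.6 to 48.1%), 18.7% at enhancers (17.3 to 20.2%) and 20.2% elsewhere (19.8 to 20.6%).

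**Figure D1:**
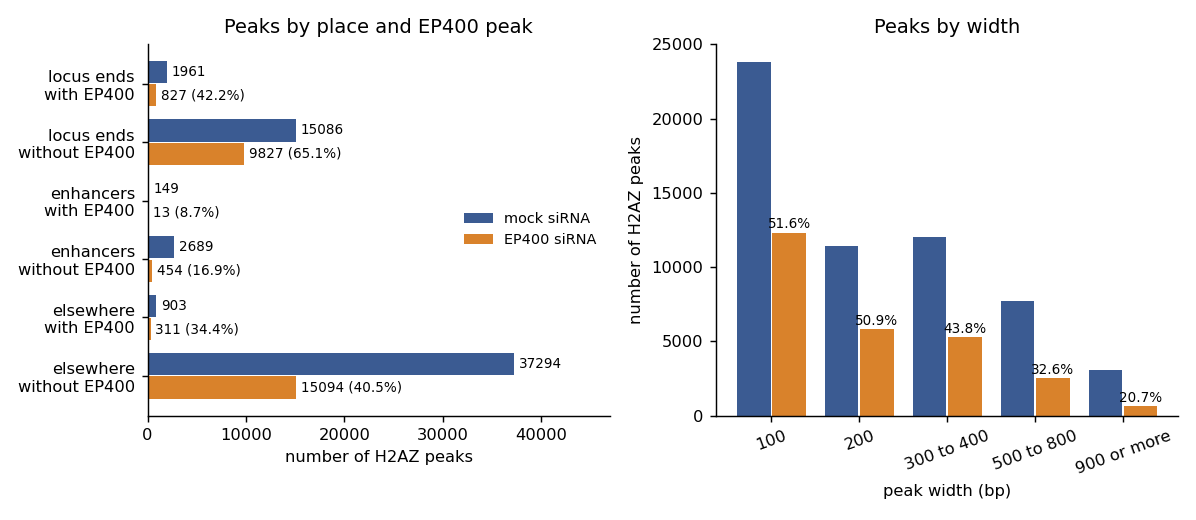
Number of H2AZ peaks in the mock siRNA list (blue) and the EP400 siRNA list (orange), 1 library each, on linear axes, by place and presence of an EP400 peak (left) and by peak width in bp (right), with the EP400 siRNA number as a percentage of the mock number beside the orange bars. The percentage runs from 65.1% at locus ends without EP400 down to 8.7% at enhancers with EP400, and from 51.6% for peaks of 100 bp down to 20.7% for peaks of 900 bp or more.

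Retention varied strongly with the width of the mock peak, and the places kept their order within every width. Of the 100-bp mock peaks 6.48% were retained, of the 200-bp peaks 20.3%, of those of 300 to 400 bp 39.2%, of those of 500 to 800 bp 64.6% and of those of 900 bp or more 90.2%. At locus ends the same 5 classes were retained in 13.8, 35.0, 54.1, 75.1 and 93.0% of cases. At enhancers they were retained in 3.005, 8.90, 19.4, 36.7 and 67.6%. Elsewhere the shares were 4.82, 14.8, 31.7, 60.2 and 89.7%. Enhancer peaks of 900 bp or more (179) thus stood at 67.6% (60.4 to 74.0%), below the 89.7% (87.9 to 91.3%) of equally wide peaks elsewhere (1219). The mean difference between locus ends and enhancers over the 5 classes was 27.1 percentage points, against 28.7 points (27.0 to 30.3) without classes.

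**Figure D2:**
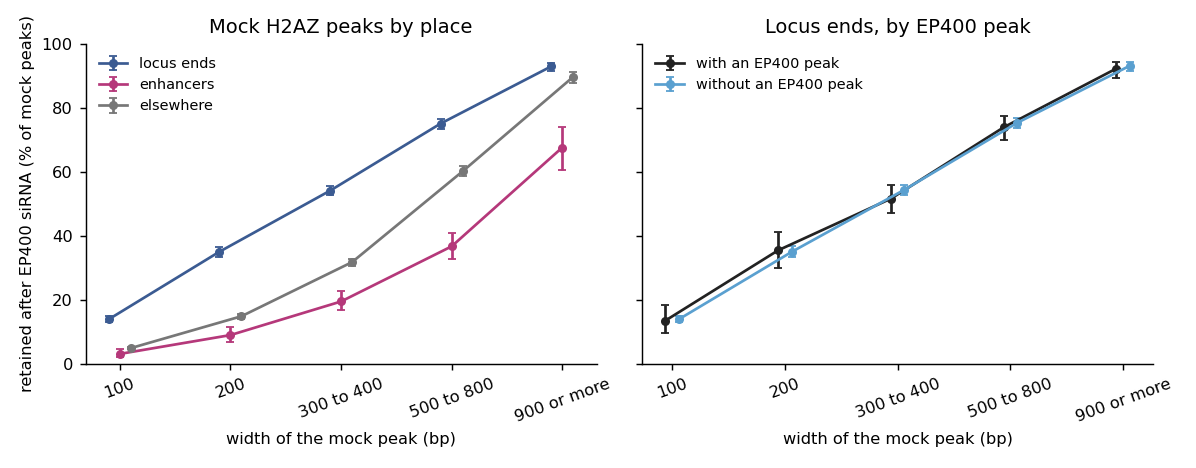
Percentage of mock H2AZ peaks that overlapped an EP400 siRNA H2AZ peak by 1 bp or more, by width of the mock peak in bp, with Wilson 95% intervals as bars. On the left locus ends lie above the rest of the genome and enhancers lie lowest in every width class (67.6% at 900 bp or more against 93.0% at locus ends), and on the right locus-end peaks with and without an EP400 peak nearly coincide.

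EP400 peaks lay on a small part of the H2AZ peaks, and those H2AZ peaks were wider. An EP400 peak overlapped 3013 mock H2AZ peaks (5.19% of the list), with a median width of 400 bp against 200 bp for the 55069 without EP400. After EP400 siRNA 1151 H2AZ peaks overlapped an EP400 peak, 38.2% of the mock number, and 25375 did not, 46.1% of the mock number. At locus ends the contrast in number was larger, with 1961 and 827 peaks with EP400 (42.2%) and 15086 and 9827 without (65.1%). At enhancers there were 149 and 13 peaks with EP400 (8.72%) and 2689 and 454 without (16.9%), and elsewhere 903 and 311 with EP400 (34.4%) and 37294 and 15094 without (40.5%). In all 3 places fewer of the H2AZ peaks with EP400 were left by number than of those without, with width not held equal. Over the whole lists the number left fell with width, from 51.6% at 100 bp to 20.7% at 900 bp or more. At locus ends fewer were left by number with EP400 in each of the 5 width classes too. Peaks of 100 bp numbered 231 and 183 with EP400, and 4307 and 3895 without. Those of 300 to 400 bp numbered 500 and 214, and 3922 and 2284. Those of 900 bp or more numbered 430 and 67, and 1237 and 259. At enhancers and elsewhere this did not hold in every class.

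By retention the comparison went the other way. A mock H2AZ peak with EP400 was retained in 54.5% of cases (52.7 to 56.3%) and a peak without EP400 in 26.7% (26.3 to 27.0%). The difference of 27.9 points was 12.99 points where 50% of the mock peak had to be covered. Since peaks with EP400 were wider and lay more often at locus ends, the shares were compared within place and width. At locus ends they stood at 13.4% with EP400 and 13.9% without for 100-bp peaks, at 35.4 and 34.9% for 200-bp peaks, and at 51.6 and 54.4% for 300 to 400 bp. The wider classes stood at 73.9 and 75.3%, and at 92.3 and 93.2%. The interval of the class with EP400 contained the share without EP400 in each of these 5 classes. The mean difference over classes was -1.01 percentage points at locus ends and -3.70 points at enhancers, where 149 peaks had EP400. Elsewhere it was 5.37 points, with 96.4% against 88.7% in the widest class.

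Counted from the EP400 sites, H2AZ was left at a minority of the sites that had carried it. Of 18048 EP400 peaks 3148 overlapped H2AZ in mock cells and 1188 after EP400 siRNA. Of the 3148 sites 1050 (33.4%, 31.7 to 35.0%) overlapped H2AZ in both lists, while 2185 (69.4%) had an EP400 siRNA H2AZ peak within 1 kb. Many of these sites therefore had no H2AZ over the EP400 peak but had an H2AZ peak nearby. Over all mock H2AZ peaks 28.1% were retained and 43.1% had an EP400 siRNA H2AZ peak within 1 kb. Of the length of mock H2AZ peaks with EP400 35.5% was shared, near the 33.4% of the sites. At locus ends the shared length was 37.1% with EP400 and 33.6% without. At enhancers 112 EP400 peaks overlapped H2AZ in mock cells and 11 after EP400 siRNA, and 35 of the 112 (31.2%) had an H2AZ peak left within 1 kb. At locus ends 75.6% of 2043 had one.

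The same could be seen in the position of H2AZ around the EP400 peaks. At EP400 peaks at locus ends the centre lay inside an H2AZ peak at 34.3% of sites in mock cells and 13.4% after EP400 siRNA, 38.9% of the mock value. At 500 bp to the right of the centre the values were 19.4 and 8.71%, which is 44.9% of mock. At enhancers the centre was covered at 12.7% of 772 sites in mock cells and at 1.13% after EP400 siRNA, 8.87% of mock, and at 500 bp at 4.63 and 0.938%, 20.2% of mock. Elsewhere the centre values were 7.28 and 2.28% (31.3% of mock), and those at 500 bp 3.903 and 1.72% (44.2% of mock). In each of the 3 places the percentage left was lower at the centre of the EP400 peak than 500 bp away. At 1500 bp to the left and right this was less clear. There 44.7 and 39.5% was left at locus ends, 21.4 and 20.6% at enhancers, and 27.4 and 31.9% elsewhere.

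**Figure D3:**
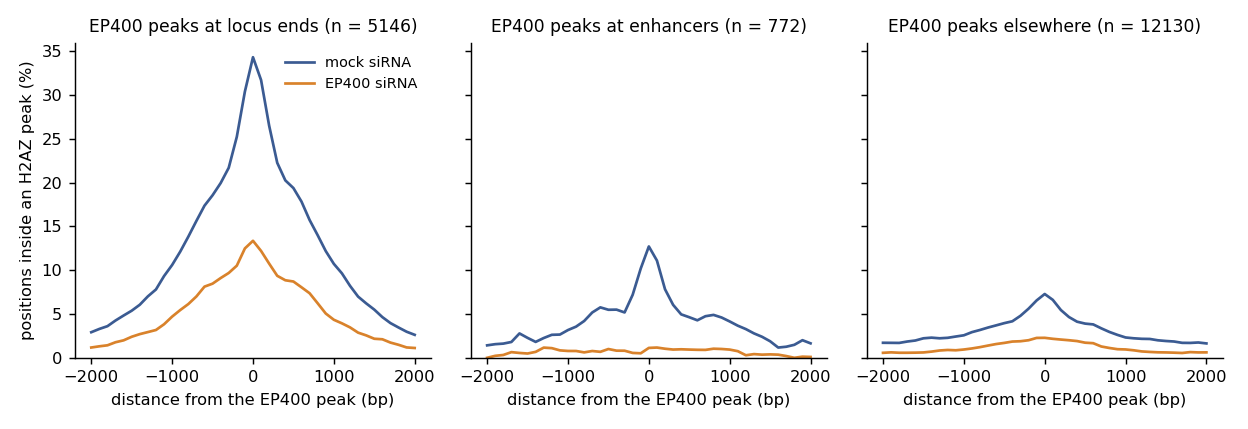
Percentage of EP400 peaks with an H2AZ peak at each distance (bp) from the centre of the EP400 peak, in mock siRNA cells (blue) and EP400 siRNA cells (orange), for EP400 peaks at locus ends, at enhancers and elsewhere. The mock curve has its maximum at the centre in each panel (34.3, 12.7 and 7.28%), and the EP400 siRNA curve at enhancers does not exceed 1.17% (1.13% at the centre).

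Locus ends combine starts and ends of transcription, so 12889 loci whose genes share a strand in the RefSeq table were oriented. H2AZ marked the starts and hardly the ends. In mock cells the start lay in a dip at 15.1% of loci covered, between an upstream shoulder of 25.2% at -400 bp and a downstream shoulder of 30.9% at 300 bp. Ends of transcription were covered at 0.491% of loci. After EP400 siRNA the shoulders stood at the same distances with 13.2 and 15.8%, and the dip at 6.004%. The shape with a shoulder on each side remained, and the shoulders kept 52.4 and 51.03% of the mock value while the dip kept 39.8%. At 1500 bp upstream 38.6% of the mock value was left, and at 1500 bp downstream 31.3%.

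**Figure D4:**
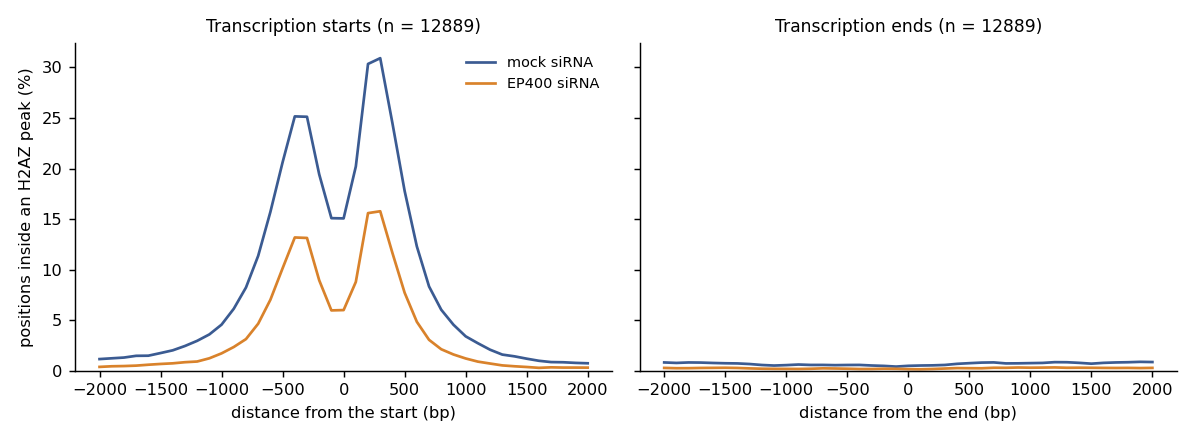
Percentage of 12889 oriented loci with an H2AZ peak at each distance (bp) from the start (left) and the end (right) of transcription, in mock siRNA cells (blue) and EP400 siRNA cells (orange). Both curves have shoulders near -400 and 300 bp of the start (25.2 and 30.9% in mock cells, 13.2 and 15.8% after EP400 siRNA), and neither has one at the transcription end.

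Starts with an EP400 peak within 2 kb carried more H2AZ, in about the same shape. In mock cells their shoulders stood at 42.5 and 49.2% of 2771 starts, against 20.6 and 25.9% of the 10118 starts without EP400. After EP400 siRNA the upstream shoulder was 52.3% of mock at starts with EP400 and 52.3% at starts without, the downstream shoulder 50.9 and 51.2%, and the start itself 39.7 and 39.9%. The percentage left at these positions differed by less than 1 point between the starts with and without EP400. An H2AZ peak within 2 kb was found at 7576 of 12889 starts in mock cells and at 5529 after EP400 siRNA, with 5318 in both.

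Loss at a start often left one flank. Within 100 to 500 bp of the start 4113 loci had H2AZ on both sides in mock cells. Of these 1690 (41.1%) still had both sides after EP400 siRNA, 779 (18.9%) only the upstream side, 895 (21.8%) only the downstream side and 749 (18.2%) neither. Of the 1569 starts with H2AZ only downstream in mock cells 550 (35.1%) still had it only there and 820 (52.3%) had neither side. Of the 1163 starts with H2AZ only upstream 377 (32.4%) still had it only there and 623 (53.6%) had neither. A start with both flanks in mock cells had none left only where each side was lost. The 18.2% is therefore not comparable with the shares of starts with a single flank.

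By number few H2AZ peaks were left where H3K4me1 was present, at locus ends too, while retention did not follow the same order. Away from locus ends 3020 mock H2AZ peaks overlapped both marks (on any stretch) and 496 EP400 siRNA peaks did, 16.4% of mock. With H3K4me1 and no H3K18ac the numbers were 1307 and 299 (22.9%). With H3K18ac and no H3K4me1 they were 6903 and 3000 (43.5%), close to the 40.5% of peaks with neither mark (29805 and 12077). At locus ends the peaks with H3K4me1 again had the lowest percentages, with 19.6% of the number left for both marks (347 and 68), 25.3% for H3K4me1 alone (158 and 40), 60.9% for H3K18ac alone (8881 and 5407) and 67.1% for neither mark. Retention of mock peaks away from locus ends was 20.6% with both marks, 20.05% with H3K4me1 alone, 32.99% with H3K18ac alone and 17.1% with neither. At locus ends it was 46.97, 36.7, 53.3 and 40.7%. The lists of both marks used here come from mock cells, and peak width was not held equal between the marks.

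Counted by enhancer, 2944 of 15928 enhancer stretches away from locus ends (18.5%), joined where closer than 1 kb, overlapped H2AZ in mock cells and 584 (3.67%) did after EP400 siRNA. Of the 2944, 491 (16.7%) overlapped H2AZ in both lists. An EP400 peak lay on 838 stretches, of which 293 carried H2AZ in mock cells and 60 after EP400 siRNA (20.5%), and without EP400 the numbers were 2651 and 524 (19.8%). The percentage left was thus nearly the same for enhancers with and without EP400 when enhancers rather than peaks were counted. It was also similar across gene-poor and gene-rich regions: in 5 classes of the number of loci within 500 kb the enhancer peaks left ranged from 15.7 to 17.9% of mock. Locus ends ranged from 68.4% in the class with the fewest loci to 56.7% in the class with the most, and the rest of the genome from 38.1% to 46.7%.

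The enhancer regions with the most H2AZ length lost lay near BOC, PEX2 and ARHGAP18. Inside the locus of BOC, a cell-surface co-receptor for Hedgehog ligands, chr3:112960301-112968300 (hg19) held 2 mock peaks of 2000 bp in sum and none after EP400 siRNA. At 37931 bp from ARHGAP18, chr6:130069301-130070900 was a single lost peak of 1600 bp. ARHGAP18 itself had 1000 bp of H2AZ at its ends in mock cells and none after EP400 siRNA, and its RNA stood at 0.403 and 5.45 FPKM. BOC had 1300 and 1000 bp at its ends, with 3.73 and 1.47 FPKM. The third region lay 116821 bp from PEX2, a peroxisome biogenesis gene with 900 and 700 bp at its ends, and its lost peak overlapped an EP400 peak while the other 2 regions had none.

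Most H2AZ peaks lay neither at a locus end nor at an enhancer, and most of those were small and alone. Of the 38197 mock peaks elsewhere 27264 (71.4%) overlapped no peak of another mock list or of EP400, with a median width of 100 bp, and 15.0% of them were retained (14.6 to 15.4%). The other 10933 were retained in 33.3% (32.4 to 34.2%). At locus ends the shares were 27.6% of 3154 peaks alone and 51.9% of 13893 with company. Width was not held equal here. The median with company was 200 bp elsewhere, and at locus ends it was 200 bp alone and 300 bp with company. Across the autosomes and X the number of peaks left ranged from 37.4% on chromosome 13 (1572 and 588 peaks) to 52.96% on chromosome 17 (1841 and 975). Chromosome 4 stood out for peaks found after EP400 siRNA alone, with 1138, which is 50.5% of its 2253 EP400 siRNA peaks against 34.9% in the genome. Chromosomes X and 13 had shares of 51.4% and 46.9%.

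Pol II and Mediator tended to stay listed where H2AZ was retained. Of retained mock H2AZ peaks 56.4% overlapped Pol II in mock cells, and of lost ones 20.3%. Among the H2AZ peaks with mock Pol II, a Pol II peak was still listed after EP400 siRNA at 74.8% of 9211 retained peaks (73.9 to 75.7%) and at 64.3% of 8470 lost peaks (63.2 to 65.3%). For MED26, a Mediator subunit, the shares were 75.8% of 6871 and 58.7% of 5843. At enhancers Pol II was still listed at 28.0% of 175 retained and 10.4% of 357 lost H2AZ peaks, and MED26 at 58.5% of 164 and 29.2% of 401. H3.3, the variant named in the title of the series, was still listed at 5.84% of 2656 retained and 3.29% of 3401 lost H2AZ peaks, low in both. Width was not held equal in these shares, and all of these lists come from 1 library per condition.

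Peaks found after EP400 siRNA alone were small, and at locus ends most lay beside a mock peak. The 9264 such peaks had a median width of 100 bp and a maximum of 900 bp, and 53.3% of them lay within 1 kb of a mock peak. At locus ends this was so for 80.3% of 2029. By contrast 21.3% of the 41750 lost mock peaks had an EP400 siRNA peak within 1 kb, with 42.0% at locus ends and 10.3% at enhancers. Lost peaks thus had a neighbour in the other, shorter list less often than the new ones had in the mock list. Peaks elsewhere made up 7130 of the 9264, of which 45.5% lay within 1 kb of a mock peak, and 105 lay at enhancers.

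The widest mock H2AZ peaks at locus ends were all retained in part. At the end of the locus of the natural killer receptor genes KLRC4 and KLRK1 a peak of 3400 bp (chr12:10515101-10518500, hg19) shared 1200 bp with 4 EP400 siRNA peaks. At EPC1 a peak of 3200 bp (chr10:32665701-32668900) shared 1800 bp with 3 peaks. At TRPS1, a GATA-type repressor, a peak of 2900 bp shared 2200 bp. These wide domains were thus broken up and shortened and did not vanish. At ARID5B a peak of 2800 bp (chr10:63658701-63661500) shared 1600 bp. The peak of 2500 bp at ITGB8 (chr7:20368901-20371400) shared 600 bp with 4 EP400 siRNA peaks, that of 2400 bp at FBXL17, an F-box gene, 1300 bp, and that of 2300 bp between ANKS1A and the TFIID subunit gene TAF11 1300 bp. The shared part ranged from 24% at ITGB8 to 75.9% at TRPS1. RNA of EPC1 stood at 16.8 and 12.4 FPKM in mock and EP400 siRNA cells, of ARID5B at 1.87 and 1.39, of TRPS1 at 0.676 and 0.543 and of ITGB8 at 0.394 and 0.828.

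The widest mock peaks at locus ends with no overlapping EP400 siRNA peak measured 1400 to 1900 bp. The widest (chr14:55879701-55881600) lay between the autophagy gene ATG14 and TBPL2, a paralog of the TATA-binding protein, 400 bp from the nearest EP400 siRNA peak. At CXADR, the coxsackievirus and adenovirus receptor gene, the nearest lay 700 bp away, and CXADR had 200 bp of H2AZ left at its ends. For the other 6 of these 8 the nearest EP400 siRNA peak lay between 15000 and 210100 bp away. They stood at CACNG8, an AMPA receptor auxiliary subunit gene, CYP4V2 (chr4:187112001-187113600), SFR1 (chr10:105879601-105881200), the cytokine receptor gene IL31RA, DNAJC13 (chr3:132135401-132136800) and MDFIC, a regulator of transcription factors. All 6 of these genes had no H2AZ left at either end. RNA of MDFIC stood at 6.89 FPKM in mock cells and 2.41 after EP400 siRNA, of IL31RA at 2.82 and 2.47, of DNAJC13 at 2.68 and 3.96, of SFR1 at 1.69 and 2.56, of CACNG8 at 0.584 and 1.26 and of CYP4V2 at 0.224 and 0.380. An EP400 peak lay on 2 of the 8 lost peaks, those of CYP4V2 and MDFIC, and on 4 of the 8 widest.

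Peaks at locus ends present after EP400 siRNA alone were at most 700 bp wide among the 6 widest. The peak of 700 bp (chr6:57036901-57037600) lay between BAG2, a co-chaperone gene, and ZNF451, and the nearest mock peak was 48700 bp away. That of CLPTM1L (chr5:1344901-1345500) lay 21800 bp from a mock peak, on an EP400 peak. The other 4, at SYPL2, ITPRID2, the GABA receptor gene GABRA2 and the chemokine genes CXCL10 and CXCL11, lay within 400 bp of a mock peak. BAG2 RNA stood at 5.34 FPKM in mock cells and 8.34 after EP400 siRNA, and CLPTM1L RNA at 460 and 164 FPKM.

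Genes were then grouped by H2AZ at the ends of their loci. Of 24050 genes 14194 (59.0%) had H2AZ at an end in mock cells, and 4298 of these (30.3%) had none after EP400 siRNA, while 388 genes had it after EP400 siRNA alone. Among genes with a mean RNA level of 1 FPKM or more over both libraries 9010 had H2AZ in mock cells, and 28.8% (2591) had none after EP400 siRNA. The share that lost H2AZ was 27.8% for such genes with an EP400 peak at an end (1048 of 3773) and 29.5% for those without (1543 of 5237). Over all genes it was 26.8% with EP400 and 32.1% without, and for genes under 1 FPKM 23.3 and 35.6%. Among genes of 1 FPKM or more it climbed with the mock RNA level, from 20.9% in the lowest of 5 equal groups to 38.7% in the highest. The share with H2AZ in mock cells was nearly level over the same groups, between 75.8 and 78.8%.

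Gene lists were set beside the 30.3% of all genes that lost H2AZ and the median covered length of 500 bp in mock cells and 200 bp after EP400 siRNA per gene with mock H2AZ. Genes of the complexes that handle H2A.Z come first. In the TIP60-EP400 complex list 2 of 16 genes with mock H2AZ had none left, and the median was 400 and 250 bp. EPC1 had 3175 and 1975 bp at its ends, its paralog EPC2 1200 and 800 bp, the subunit gene DMAP1 900 and 500 bp, and EP400 itself 500 and 300 bp. Among the H2A.Z genes, chaperones and other remodelers 3 of 12 had none left, and the INO80 complex genes ACTR5, INO80B and INO80 went from 900 to 700, from 600 to 500 and from 600 to 300 bp. Among the H3.3 genes and chaperones 3 of 10 had none left, including ATRX (855 bp in mock cells), while HIRA had 900 and 400 bp.

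Lists of growth and protein synthesis genes were above the background. Cytosolic ribosomal protein genes had none left in 10 of 20, with RPL5 at 1100 and 500 bp and RPL37 at 700 and 200 bp. Of the 38 genes in this list 4 had H2AZ after EP400 siRNA alone, against 388 of all 24050 genes. The list of MYC targets and ribosome biogenesis had none left in 8 of 15, with POLR1B, an RNA polymerase I subunit gene, at 1500 and 700 bp. Oxidative phosphorylation had none left in 10 of 23, although NDUFS3 kept 800 of 1000 bp. The share that lost H2AZ climbed with the RNA level among genes of 1 FPKM or more, and the RNA level was not held equal between the lists. DNA replication and E2F target genes lay below the background with 6 of 28, and MCM3 and PCNA had 1279 and 1000 bp in mock cells and 1000 and 800 bp after EP400 siRNA. Mitosis genes lay nearer to it with 8 of 22, and NDC80, a kinetochore gene, had 1600 and 600 bp.

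Lists of inducible genes lay at the background or above it. Interferon-stimulated genes had none left in 7 of 19. The antiviral genes IFIT2 and IFI44L had 1300 and 1500 bp in mock cells and 200 bp each after EP400 siRNA, and their RNA stood at 0.331 and 5.23 FPKM for IFIT2 and at 0.0384 and 1.20 FPKM for IFI44L. The inflammatory, NF-kB list had none left in 5 of 12, while the chemokine gene CXCL3 had 1100 and 1000 bp, with 0.543 and 12.5 FPKM. H2AZ at the ends was thus lower at 2 of these genes and nearly level at the third while the RNA of all 3 was higher after EP400 siRNA. p53 targets had none left in 7 of 15, among them SESN1 and TIGAR with 700 bp each in mock cells. Immediate-early genes had none left in 4 of 13, with FOS at 1200 and 200 bp. The unfolded protein and amino acid response list had none left in 6 of 16, with the asparagine synthetase gene ASNS at 1200 and 400 bp, and heat shock proteins in 3 of 8, with HSP90AB1 at 1000 and 100 bp.

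Developmental and structural genes differed more. HOX genes had none left in 7 of 25, with HOXD8 at 1500 and 900 bp, and developmental transcription factors in 7 of 26, with FOXA2 at 1100 and 400 bp. Zinc finger genes of chromosome 19 had none left in 8 of 47, with ZNF570 at 1574 and 800 bp, and Mediator genes in 6 of 29, with MED6 at 1507 and 900 bp. The first 2 of these 4 lists lay near the background and the other 2 below it. Actin and contractile genes had none left in 8 of 15, among them ACTN1 (600 bp in mock cells), while MYL9, a myosin light chain gene, had 900 and 100 bp. Extracellular matrix genes had none left in 7 of 16, with COL5A2 at 1000 and 600 bp. Replication-dependent histone genes carried little H2AZ, 5 of 36 in mock cells, of which 4 had none left.

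**Figure D5:**
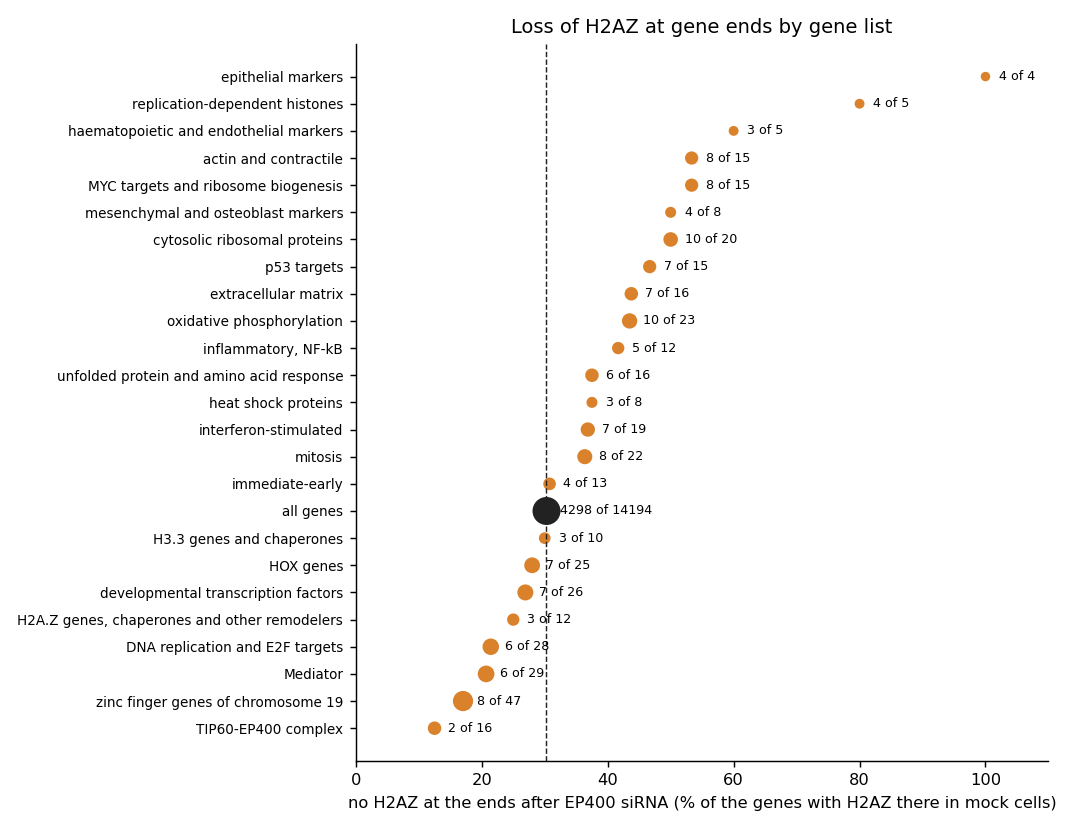
Percentage of genes with H2AZ at a locus end in mock cells that had none after EP400 siRNA, for each gene list, with the counts beside the points, point area growing with the number of genes up to a ceiling, and all genes in black with a dashed line at 30.3%. The highest values come from lists with 4 or 5 such genes, and among the larger ones they run from 2 of 16 for the TIP60-EP400 complex to 8 of 15 for actin and contractile genes and for MYC targets and ribosome biogenesis.

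Marker genes checked the cell type. Of 15 mesenchymal and osteoblast markers 11 stood at 1 FPKM or more in mock cells, of 13 epithelial markers 4, and of 12 haematopoietic and endothelial markers 1. In the mesenchymal and osteoblast list SP7 stood at 0.0143 FPKM in mock cells, and 2 genes stood at 0 in both libraries. The summed level of each list in mock cells was 1549, 960 and 11.5 FPKM, and in the epithelial list most of it came from the keratin genes KRT18 (519 FPKM) and KRT8 (369 FPKM), while the adhesion gene EPCAM stood at 0.680 FPKM. In mock cells 8, 4 and 5 genes of these lists had H2AZ at an end, and 4, 4 and 3 of them had none after EP400 siRNA. SPP1, which encodes osteopontin, went from 500 bp to none, CDH2, which encodes N-cadherin, from 500 to 200 bp, and the epithelial gene OCLN from 800 bp to none. The endothelial receptor gene KDR, listed at 0.00338 FPKM in mock cells, had 1000 and 1200 bp.

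Genes that lost H2AZ at their ends had a lower RNA ratio than genes that kept it, by an amount that went with gene density and RNA level. The log2 ratio of EP400 siRNA FPKM + 1 to mock FPKM + 1 understates the difference of low genes. It had a median of -0.46 over the 2591 genes that lost H2AZ and of -0.03 over the 6419 that kept it, a difference of -0.43, and of -0.20 over all 11666 genes. At least 2-fold lower RNA was found for 22.9% of all genes (2677), 28.2% of those that lost H2AZ (731) and 18.8% of those that kept it (1208). At least 2-fold higher RNA was found for 6.11% (713), 5.98% (155) and 5.84% (375). Rescaling both libraries to the same sum shifted the median of all genes by 0.66, which turned the balance to 619 lower and 3363 higher genes and the medians to 0.22 and 0.62, so directions are given relative to all genes.

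Genes that lost H2AZ lay in denser regions, with a median of 16 loci within 500 kb against 12, and had more RNA in mock cells, with a median of 12.4 against 6.44 FPKM. The mean difference was -0.13 within 5 classes of locus density, -0.21 within 5 classes of mean FPKM and -0.08 within 25 classes of both, where single classes ranged from -0.26 to 0.31. Genes with no H2AZ at an end in either list (2478) had a median of -0.42, close to those that lost it. The 178 genes with H2AZ after EP400 siRNA alone had the lowest median, -0.72, with 36.5% (65) at least 2-fold lower. In the lowest of the 5 mock RNA groups the medians of genes that kept and lost H2AZ were 0.48 and 0.45. In the 3 middle groups they were 0.22 and 0.06, -0.02 and -0.27, and -0.59 and -0.77, and in the highest -1.002 and -1.029. The difference was thus small in the lowest and the highest group and larger in the middle ones. Over genes of any level, with no filter on FPKM, it was -0.0304.

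The number of promoter CpGs differed between genes with and without H2AZ more than between genes that kept and lost it. Of 18677 coding genes 14956 (80.1%) had a window in the RefSeq table, and values are means over a gene's windows. In 5 classes of increasing CpG number H2AZ was present at an end in mock cells for 28.8, 60.0, 76.1, 77.0 and 78.1% of genes. The share of those genes that lost it was 44.4, 26.8, 26.2, 25.5 and 32.2%. Loss was therefore most frequent in the CpG-poorest class and otherwise nearly level, with a somewhat higher value in the CpG-richest. Among coding genes of 1 FPKM or more the median number of CpGs was 26 where H2AZ was kept, 27 where it was lost and 23.5 where neither list had it.

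Short motifs were counted in the same windows. They were searched on both strands, and a gene was counted where any of its windows held the motif. None contains another, though matches of different motifs can overlap in a window. In expressed coding genes the Sp1-type motif GGGCGG was in the windows of 79.4% of genes that kept H2AZ, 82.3% of those that lost it and 73.3% of those with H2AZ in neither list, beside 45.0% of all 35116 RefSeq windows. For the ETS-type motif CCGGAA the shares were 36.8, 37.1 and 32.4% beside 17.2%, and for CCAAT 42.4, 43.0 and 45.9% beside 34.6%. TATAAA was in 6.99, 7.60 and 12.1% beside 11.5%, CACGTG in 12.7, 13.7 and 13.2% beside 7.26%, and TGACGTCA in 4.09, 3.83 and 4.03% beside 1.85%. No motif differed by more than 3 percentage points between genes that kept and lost H2AZ, and TATAAA was more frequent where H2AZ was in neither list. A match of letters is a description and not a binding site.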

How the data were processed

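ChIP and RNA were measured in U2OS cells, in 1 library per antibody and condition except for EP400, where 3 immunoprecipitations came as 1 list. Each peak file is a list of chromosome, start and end, deposited by the authors with no score, in steps of 100 bp (50 bp for EP400). Coordinates are hg19, counted from 1. The submitters' processing notes name Cuffdiff 2.0.2, TopHat2 2.0.8, Bowtie 0.12.9 and hg19. The 4 inputs were not analysed here, and how peaks were called is not given in the sources used here. RNA values are FPKM deposited by the authors for 48669 RefSeq rows. No read total came with any file, so the depth of each library is unknown and no test on counts was made.

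From these files overlaps of 1 bp or more, widths, gaps and covered lengths were computed with Python 3.11.15, numpy and pandas, and the overlap code was tested on simulated data and against bedtools. Shares carry Wilson 95% intervals. Loci came from RNA rows of 200 nt or more, and FPKM were summed per gene, leaving out 122 genes with a failed estimate. Symbols (97.7% of rows), strands and promoter windows came from RefSeq tables on GRCh38.p14, used for these alone. Genes of a mean FPKM of 1 or more entered the RNA comparison, with a pseudocount of 1.

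The members and the 24 gene lists (632 of 636 entries matched) were chosen with earlier results of these data known. The lists are those counted in the report, marker lists included. Named genes were those at the 8 widest mock peaks at locus ends, the 8 widest without an EP400 siRNA peak, the 6 widest EP400 siRNA peaks without a mock peak, for each list up to 3 members with the greatest mock H2AZ length, the 3 enhancer regions with the most length lost, and EP400. From these the text names a part, and 1 of the 8 widest mock peaks is not reported here. Promoters are the first 3 of each of the first 2 sets whose peak lay within 2 kb of the gene's start by strand, a condition added after seeing the data. Alternatives changed the overlap, the merging of peaks, peak numbers, the locus end, the enhancer definition, classes of width and density, and the RNA filter, pseudocount and scaling.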

Additional observations from a re-analysis of the deposited data

How the results depend on the processing

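No paired analysis was possible because each antibody and condition had 1 library and the 3 EP400 immunoprecipitations came as 1 list. With 1 library a side, no library could be left out. Depth is unknown and limits every number. Classes within a place, starts alone, and classes of mean FPKM were chosen after seeing the data. Of 41 alternatives 39 kept the direction and 2 turned it. Alternatives for a number of peaks or genes could not turn it. In 20 of the 39 the value moved outside the limits set around the main result. The cause of these changes was not tested beyond what each alternative holds equal. The number of peaks left was 29.2% of mock for peaks of 500 bp or more. Retained mock peaks numbered 9966 when 50% of the peak had to be covered and 25012 when a peak within 1 kb counted. Genes that lost H2AZ numbered 4298 with no filter on FPKM.

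Retention at locus ends minus enhancers was 20.9 percentage points at 50% overlap, 36.1 with equal peak numbers, 31.5 and 25.1 with locus ends of 1 kb and 5 kb, and 26.9 with H3K4me1 as the enhancer mark whether or not H3K18ac was present. Retention with minus without EP400 was 12.99 points at 50% overlap, 16.8 with equal numbers, 17.6 for EP400 within 1 kb, 14.1 at locus ends and 5.54 within width classes. Within width classes it was -1.01 at locus ends, -3.70 at enhancers and 5.37 elsewhere. The RNA difference between genes that lost and kept H2AZ was -0.0304 with no filter, -0.28 at a mean FPKM of 5 or more, -0.13 within density classes, -0.21 within FPKM classes and -0.0778 within both.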
